A study of Homo sapiens with 16 samples.

Results

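HEATR2, also named DNAAF5, is a human gene on chromosome 7 that encodes a cytoplasmic factor needed to assemble the dynein arms of motile cilia. The locus was taken as every region on chromosome 7 that overlapped positions 750000 to 850000 (build hg19) in the 7 deposited tables, in which HEATR2 spans about 766300 to 829200 on the plus strand. These were 222 of 1255311 regions, of which 162 overlapped the gene itself. The window held 11 CTCF, 26 RAD21, 22 SMC1, 27 H3K27Ac, 21 Pol2Ser5, 67 Pol2Ser2 and 48 TotalRNAPol2 regions. In the RefSeq annotation the upstream neighbour is PRKAR1B, a regulatory subunit gene of protein kinase A on the minus strand whose span overlaps the start of HEATR2. Downstream lie a non-coding RNA gene and SUN1, which encodes a nuclear envelope protein.

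Chromatin immunoprecipitation followed by sequencing was compared between DKO cells and HCT116 cells. DKO is a derivative of HCT116 that carries disrupted DNMT1 and DNMT3B, genes of DNA methyltransferases, and is known to keep some DNMT1 activity, and HCT116 is a colorectal carcinoma line. No treatment is given for either line, and each gave 1 library for each of 7 targets, which leaves every difference without a replicate check. Chromatin was pulled down with antibodies to CTCF, the cohesin subunits RAD21 and SMC1, acetylated lysine 27 of histone H3 (H3K27Ac), the serine 5 form (Pol2Ser5) and the serine 2 form (Pol2Ser2) of phosphorylated RNA polymerase II, and total polymerase (TotalRNAPol2). The TotalRNAPol2 samples carry that name in their titles, while their antibody label reads Pol2Ser5, so that antibody is uncertain.

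CTCF is a zinc finger protein that methylated DNA can keep from its recognition sequence, and it stalls the cohesin ring as cohesin extrudes chromatin loops. Polymerase phosphorylated at serine 5 marks initiation and early elongation, the serine 2 form marks productive elongation and accumulates towards sites of cleavage and polyadenylation, and H3K27Ac marks active promoters and enhancers. The study asked how DNA methylation acts, through CTCF and cohesin, on the choice between polyadenylation sites. The transcript ends of HEATR2 were not analysed here.

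The RefSeq promoter of DNAAF5 (build GRCh38.p14, chr7:726449-726748, plus strand, ending shortly after the annotated start) is shown because CpG dinucleotides are what the DNA methyltransferases disrupted in DKO act on. The capitals mark each CG.
DNAAF5 promoter: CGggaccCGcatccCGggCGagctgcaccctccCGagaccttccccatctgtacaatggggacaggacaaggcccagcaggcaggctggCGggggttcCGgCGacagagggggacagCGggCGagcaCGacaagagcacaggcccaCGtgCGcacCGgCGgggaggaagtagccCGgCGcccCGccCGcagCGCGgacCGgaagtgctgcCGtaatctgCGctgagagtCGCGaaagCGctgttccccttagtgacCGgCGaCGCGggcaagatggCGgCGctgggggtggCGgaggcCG
The 300 bases hold 35 CG dinucleotides and are 71.7% G or C, and 14.1% of the 35116 RefSeq promoters of that length hold at least as many. The letters CCCTC, for which CTCF is named, occur 2 times over both strands, and 71.2% of the promoters hold them at least 1 time. They are not the core of the CTCF motif, whose occurrence is not given here. The sequences under the intragenic regions described below are not given, because no genome of the build used by the tables was at hand.

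Each region is described by M, the deposited log2 ratio of normalized read density in DKO over HCT116, so that an M of 1 is a density 2-fold higher in DKO. Whole reads were recovered from the densities, and the 95% interval given with M is an exact interval from those reads that covers counting error only. Reads were counted in windows of 1 kb for CTCF, RAD21 and SMC1 and of 2 kb for the other targets. Regions of the locus had between 6 and 775 reads in a library. Neighbouring regions can share reads. Another region of the window lay within 1 counting window of 97.0% of Pol2Ser2, 89.6% of TotalRNAPol2, 85.2% of H3K27Ac and 61.9% of Pol2Ser5 regions. The shares were 27.3% for CTCF, 30.8% for RAD21 and 13.6% for SMC1 regions. The copy number of the locus in DKO and HCT116 was not analysed here.

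The promoter of HEATR2 differed little between the lines for acetylation and for the main peak of polymerase, and no CTCF region lay within 2 kb of the start. The H3K27Ac region at chr7:765148-769202 had 447 reads in DKO and 466 reads in HCT116, with an M of 0.03 (95% interval -0.16 to 0.22). The main Pol2Ser5 region, chr7:764998-767062, had 370 reads in DKO and 238 reads in HCT116, with an M of -0.21 (-0.45 to 0.03). The main TotalRNAPol2 region, chr7:765181-767036, had 273 reads in DKO and 162 reads in HCT116, with an M of -0.02 (-0.30 to 0.27). For all 3 the interval held 0. A unit of normalized density took more reads in DKO than in HCT116 in both polymerase tables, so reads and densities order the lines differently there.

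Just inside the gene the serine 5 signal was higher in DKO. The Pol2Ser5 region at chr7:767145-767810 had 149 reads in DKO and 44 reads in HCT116, with an M of 0.96 (0.49 to 1.5). Next to it, chr7:768199-768625 had an M of 0.76 (0.14 to 1.5), and chr7:770134-770695, with 60 reads in DKO and 13 reads in HCT116, had an M of 1.40 (0.60 to 2.47). Each of these Pol2Ser5 regions lay within 1 counting window of the next, so they can share reads. In the densest promoter region of each cohesin subunit the directions were opposite, and neither interval excluded 0. RAD21 at chr7:765661-766623 had 68 reads in DKO and 75 reads in HCT116 (M -0.45, -0.94 to 0.04), and SMC1 at chr7:765836-766397 had 70 reads in DKO and 40 reads in HCT116 (M 0.48, -0.09 to 1.09). The other promoter regions, RAD21 at chr7:766852-767046 (M -0.54) and chr7:767576-767894 (M -0.24) and SMC1 at chr7:767706-767870 (M -0.12), were below 0 with intervals that held 0. Pol2Ser2 was low there, with 33 reads in DKO and 39 reads in HCT116 at chr7:766018-766380 (M 0.32, -0.40 to 1.02).

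The CTCF region nearest the start was lower in DKO, together with RAD21 and H3K27Ac. At chr7:771552-772248 CTCF had 72 reads in DKO and 163 reads in HCT116, with an M of -1.20 (-1.64 to -0.81). RAD21 at chr7:771700-772281 had 65 reads in DKO and 107 reads in HCT116, with an M of -0.99 (-1.47 to -0.54). H3K27Ac at chr7:771361-772093 had 39 reads in DKO and 133 reads in HCT116, with an M of -1.49 (-2.07 to -0.99), and it was called in HCT116 only. SMC1 at chr7:771805-772156, with 48 reads in DKO and 46 reads in HCT116, had an M of -0.25 whose interval held 0 (-0.87 to 0.36). The H3K27Ac regions between this site and the promoter were graded: M was -0.42 at chr7:769720-770039, -0.63 at chr7:770263-770640 and -0.91 at chr7:770904-771088. These regions lie closer together than the 2 kb counting window, so they share reads. As deposited, all 3 phosphorylated or total polymerase regions at the CTCF site had an M above 0. M was 0.92 (0.21 to 1.80) in Pol2Ser5, 0.13 (-0.68 to 0.89) in Pol2Ser2 and 0.19 (-0.28 to 0.68) in TotalRNAPol2. The sign of the last 2 depended on the scaling, with -0.14 for Pol2Ser2 and -0.09 for TotalRNAPol2 under constant scaling.

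**Figure D1:**
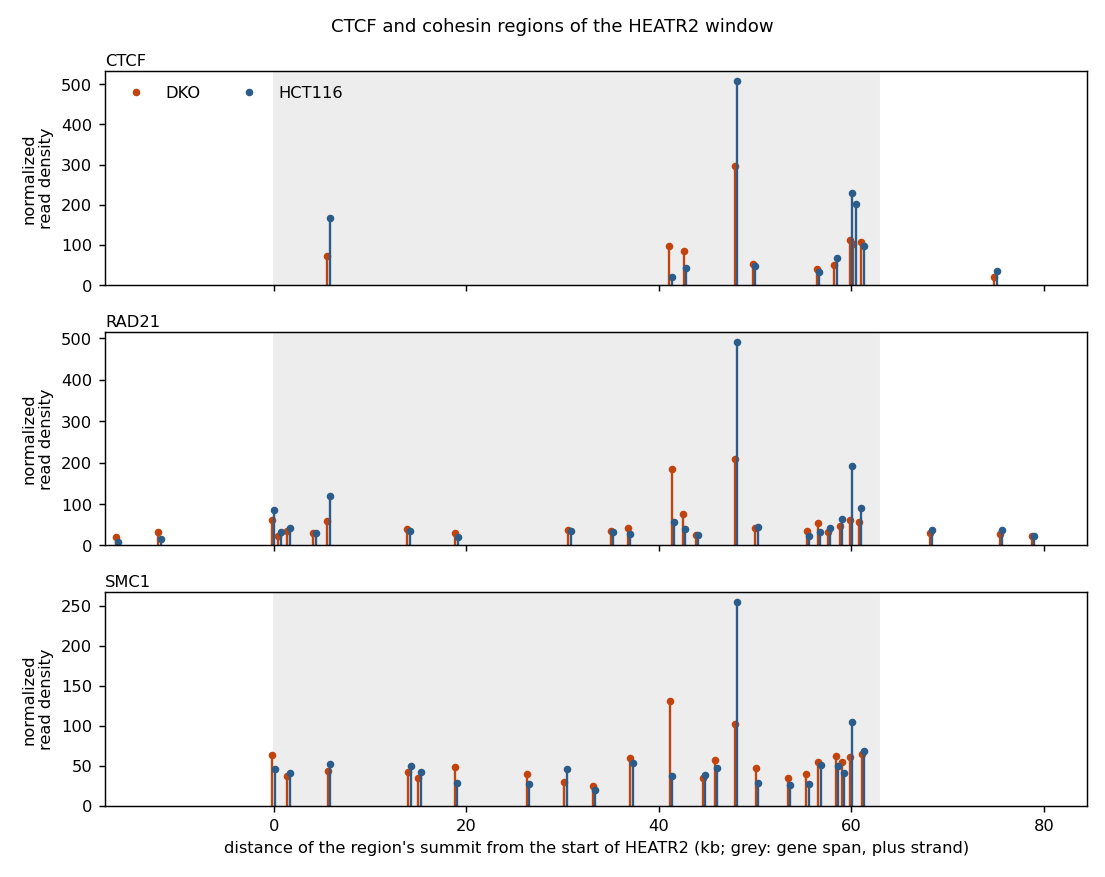
Normalized read density (y axis, linear, deposited units) of each CTCF, RAD21 and SMC1 region, drawn at the distance of its summit from the start of HEATR2 in kb, with DKO in orange left of HCT116 in blue and the gene span in grey. The CTCF site at 48.0 kb has the tallest density for all 3 in HCT116, and at the site 41.2 kb from the start DKO exceeds HCT116 for all 3, with an M of 2.29 for CTCF, 1.71 for RAD21 and 1.83 for SMC1.

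At a site 41.2 kb from the start of the gene, every one of the 7 targets was higher in DKO by 2-fold or more, and all 7 regions were called in DKO only. The site was chosen as the gene's CTCF region of highest M. CTCF at chr7:807356-807822 had 102 reads in DKO and 18 reads in HCT116, with an M of 2.29 (1.62 to 3.16). A second CTCF region close by, chr7:808580-809182, had 88 reads in DKO and 39 reads in HCT116, with an M of 1.04 (0.50 to 1.64). These were the only CTCF regions of the window that were at least 2-fold higher in DKO, 2 of 11, against 20.1% of all 171693 CTCF regions.

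Both measured cohesin subunits were higher with CTCF at that site. RAD21 at chr7:807280-808389 had 200 reads in DKO and 51 reads in HCT116, with an M of 1.71 (1.28 to 2.20), and its neighbour chr7:808572-809177 had an M of 0.88 (0.32 to 1.52). SMC1 at chr7:807258-809147 had 146 reads in DKO and 32 reads in HCT116, with an M of 1.83 (1.31 to 2.47). The whole window had 3 of 26 RAD21 regions and 1 of 22 SMC1 regions 2-fold or more above HCT116, against a background of 13.7% of all RAD21 and 9.36% of all SMC1 regions. The other 2 RAD21 regions, chr7:749981-750140 and chr7:754319-754555, lay in the upstream flank and had at most 39 reads in a library.

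Acetylation showed the largest ratio of the 7 targets. H3K27Ac at chr7:807199-809297 had 775 reads in DKO and 69 reads in HCT116, a density 12.3-fold higher in DKO (M 3.62, 3.29 to 4.02). It was followed by chr7:809564-809870 with an M of 1.94 (1.56 to 2.37) and chr7:809987-810308 with an M of 0.92 (0.48 to 1.39), within the reach of 1 counting window of each other. Of all 195421 H3K27Ac regions 0.576% had an M at least as high as the main one. In the window 2 of 27 H3K27Ac regions were 2-fold or more higher in DKO, both at this site, against 11.0% of the table.

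All polymerase forms were higher at the site as well. Pol2Ser5 at chr7:806996-809266 had 317 reads in DKO and 29 reads in HCT116, with an M of 2.62 (2.11 to 3.27). Pol2Ser2 at chr7:806604-808772 had 255 reads in DKO and 45 reads in HCT116, with an M of 2.51 (2.08 to 3.03). TotalRNAPol2 at chr7:807025-809233 had 586 reads in DKO and 65 reads in HCT116, with an M of 2.41 (2.06 to 2.83). The next regions downstream were higher too but by less: Pol2Ser5 at chr7:809408-809739 (M 1.74), Pol2Ser2 at chr7:808867-809146 (M 1.71) and chr7:809421-809681 (M 1.11), and TotalRNAPol2 at chr7:809552-809890 (M 1.22). They lay within 1 counting window of their upstream neighbours, so they can share reads with them. Chosen by its CTCF M, the site also held the highest M of the window in each of the other 6 tables.

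**Figure D2:**
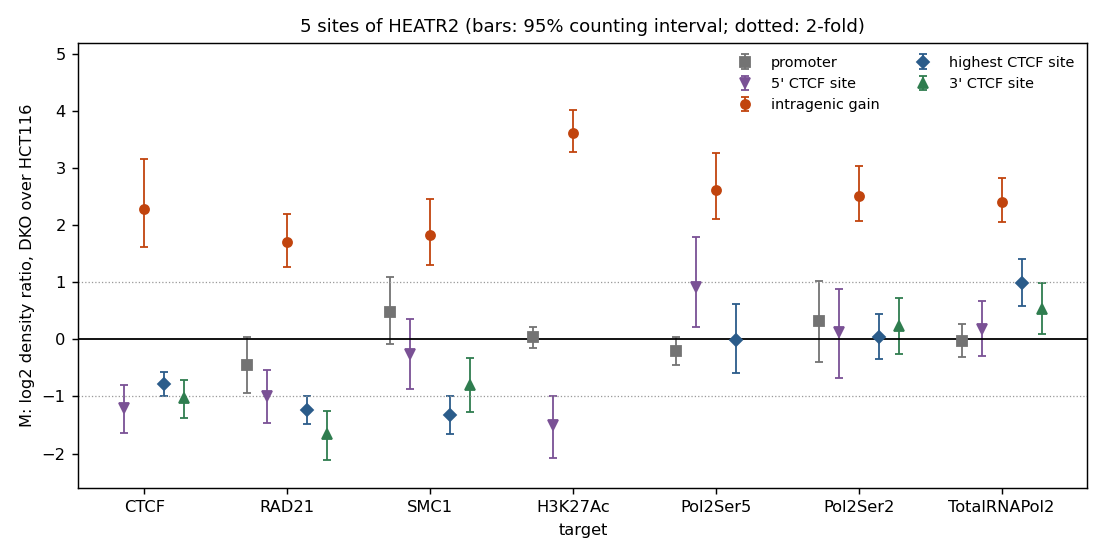
M (y axis, log2 density ratio of DKO over HCT116) of the 7 targets (x axis) at 5 places of HEATR2, each the region of highest mean density that overlaps the promoter window or the CTCF region, with bars for the 95% counting interval and dotted lines at 2-fold. All 7 intervals of the intragenic site lie above 1, from an M of 1.71 for RAD21 to 3.62 for H3K27Ac, while the promoter values lie between -0.45 and 0.48.

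The ratio of reads at this site to reads at the densest promoter region of the same library does not depend on how the lines were scaled to each other. For H3K27Ac it was 1.73 in DKO and 0.148 in HCT116, a ratio of ratios of 11.7 (95% counting interval 8.81 to 15.7). For Pol2Ser5 it was 0.857 in DKO and 0.122 in HCT116, differing 7.02-fold (4.61 to 11.0). For Pol2Ser2 it was 7.73 in DKO and 1.15 in HCT116, differing 6.65-fold (3.67 to 12.2), and for TotalRNAPol2 2.15 in DKO and 0.401 in HCT116, differing 5.34-fold (3.84 to 7.50). In DKO the counting window of the site thus held more H3K27Ac and more TotalRNAPol2 reads than that of the densest promoter region, and in HCT116 fewer. The H3K27Ac promoter region is 4054 bp long, so its 2 kb window covers only part of it. Cohesin also gained relative to the promoter, with RAD21 ratios of 2.94 in DKO and 0.680 in HCT116 and SMC1 ratios of 2.09 in DKO and 0.800 in HCT116. This comparison was chosen after the values had been seen.

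Such a joint difference occurred elsewhere in the genome. Among the 171693 CTCF regions were 34479 denser in DKO by 2-fold or more, and 3658 of these overlapped a region of each of the other 6 tables. In 341 of these 3658 (9.32%) all 7 targets were higher in DKO by 2-fold or more, the HEATR2 site among them. The CTCF regions elsewhere whose 7 M values lay nearest to it, by Euclidean distance among 20963 regions with a value for all 7 targets, were chr10:94456067-94456626 (distance 0.906), chr16:29169764-29170488 (1.02), chr21:45573435-45574074 (1.07), chr9:134131877-134132433 (1.38) and chr19:1164112-1164316 (1.47). At the nearest, M was 1.99 for CTCF, 1.51 for RAD21, 1.45 for SMC1, 4.04 for H3K27Ac, and among polymerase forms 2.63 (Pol2Ser5), 1.96 (Pol2Ser2) and 2.16 (TotalRNAPol2).

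**Figure D3:**
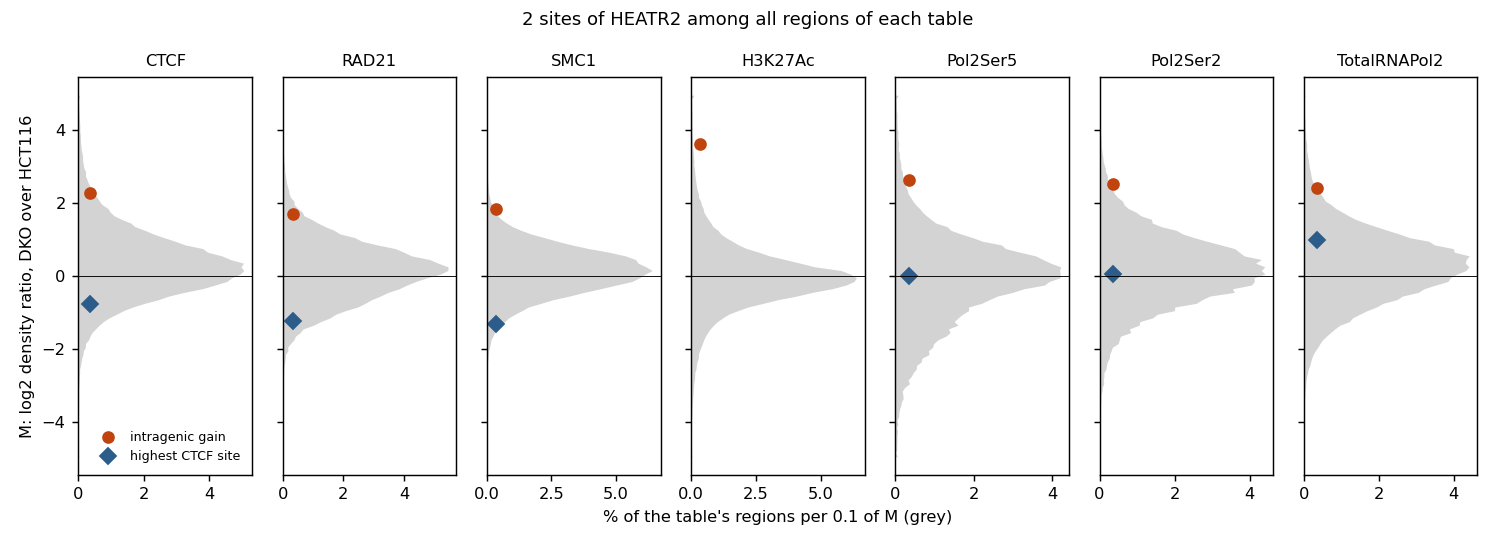
Share of each table's regions per 0.1 of M (grey, x axis in percent) against M (y axis, log2 density ratio of DKO over HCT116; values beyond 5 in size are drawn in the last step), with the intragenic site as an orange circle and the CTCF region of highest density as a blue diamond; the horizontal place of the symbols carries no value. The intragenic site lies in the upper tail of every table, from an M exceeded or equalled by 0.576% of H3K27Ac regions to one reached by 3.43% of RAD21 regions. It was chosen as the gene's CTCF region of highest M, so its place in the CTCF panel follows in part from that choice.

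The strongest CTCF and cohesin site of the gene lay 6780 bp further downstream, between summits, and there the difference ran the other way. At chr7:812621-815641, 48.0 kb from the start and 14.9 kb before the end of the gene, CTCF had 282 reads in DKO and 529 reads in HCT116, with an M of -0.78 (-0.99 to -0.57). RAD21 at chr7:811907-815180 had 211 reads in DKO and 485 reads in HCT116, with an M of -1.23 (-1.48 to -1.0). SMC1 at chr7:812686-815017 had 114 reads in DKO and 225 reads in HCT116, with an M of -1.32 (-1.66 to -0.99). All 3 were called in both lines. By mean density the site ranked in the top 3.65% of CTCF, 1.77% of RAD21 and 3.33% of SMC1 regions.

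Within a library the reads at the 41.2 kb site relative to those at the 48.0 kb site differed between the lines for CTCF and both cohesin subunits. SMC1 at the 41.2 kb site had 1.28 times the reads of the 48.0 kb site in DKO, and 0.142 times in HCT116. For RAD21 the ratio was 0.948 in DKO and 0.105 in HCT116, and for CTCF 0.362 in DKO and 0.0340 in HCT116. The ratio of ratios was 8.96 (5.67 to 14.5) for SMC1, 8.99 (6.30 to 13.0) for RAD21 and 10.6 (6.23 to 19.0) for CTCF. The sites were chosen by CTCF M and by CTCF density, so the CTCF ratio of ratios follows in part from that choice.

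The 48.0 kb site had no H3K27Ac region, and polymerase did not follow CTCF and cohesin there. Pol2Ser2 at chr7:812845-815186 had 109 reads in DKO and 108 reads in HCT116, with an M of 0.05 (-0.35 to 0.44), and in HCT116 its density of 53.9 was the highest of any Pol2Ser2 region in the window. Pol2Ser5 at chr7:813439-813984 had 66 reads in DKO and 39 reads in HCT116, with an M of -0.01 (-0.59 to 0.62). TotalRNAPol2 at chr7:812692-814478 had 195 reads in DKO and 69 reads in HCT116, with an M of 0.98 (0.59 to 1.41). The CTCF regions elsewhere with the most similar M over these 6 targets, among 1475 with no H3K27Ac region, were chr19:44166498-44167295 (distance 0.987), chr12:27191880-27193338 (1.00), chr13:45147842-45148823 (1.10), chr3:196213042-196214292 (1.15) and chrX:54473699-54474277 (1.16). Among the 76778 CTCF regions with both cohesin subunits, 360 had RAD21 and SMC1 at least 2-fold lower in DKO with CTCF lower by less than 2-fold, as the deposited M values give it here. Recentred on all regions the M of CTCF at the 48.0 kb site was -1.04, and relative to the median within 1 Mb it was -1.22, both past 2-fold.

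Towards the end of the gene CTCF formed a cluster of regions that did not move together. The strongest, chr7:824992-826427, had 111 reads in DKO and 230 reads in HCT116, with an M of -1.03 (-1.38 to -0.70). Its neighbour chr7:826530-826698, called in DKO only, shares part of its counting window and had 101 reads in DKO and 201 reads in HCT116 (M -0.99, -1.35 to -0.64). Cohesin was lower with them: RAD21 at chr7:825955-826690 had 65 reads in DKO and 176 reads in HCT116, with an M of -1.66 (-2.10 to -1.25), and SMC1 at chr7:825957-826401 had 67 reads in DKO and 93 reads in HCT116, with an M of -0.79 (-1.27 to -0.33). Close by, CTCF at chr7:827043-827831 had 109 reads in DKO and 96 reads in HCT116, with an M of 0.14 (-0.27 to 0.55), while RAD21 at chr7:827040-828209 had an M of -0.70 (-1.21 to -0.20) and SMC1 at chr7:827108-827769 one of -0.08 (-0.59 to 0.44).

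The remaining CTCF regions of the gene were weaker, and the interval of each held 0. They had M values of 0.09 at chr7:815967-816291, 0.37 at chr7:822777-822977 and -0.46 at chr7:824523-824968, with at most 65 reads in a library. RAD21 at chr7:816159-816601, which overlaps the first of these, had an M of -0.10, and at chr7:822858-823339, which overlaps the second, 0.71 (0.08 to 1.44). SMC1 at chr7:822905-823124 had an M of 0.09. Over the remaining one and its strong neighbour, RAD21 at chr7:824813-825624 had an M of -0.49 (-1.07 to 0.08), and SMC1 had 0.30 at chr7:824549-825069 and 0.41 at chr7:825183-825625, with intervals that held 0. Beyond the gene the single CTCF region, chr7:841056-841356, had 20 reads in DKO and 32 reads in HCT116, with an M of -0.87 (-1.78 to -0.05).

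Over the 10 CTCF regions of the gene, 5 had an M above 0 and 5 below it, and the interval lay wholly above 0 for 2 and wholly below 0 for 4. The regions at least 2-fold lower in DKO numbered 2 of 11 CTCF, 2 of 26 RAD21 and 1 of 22 SMC1 regions in the window, against 6.33%, 8.70% and 4.67% of their tables. The window's median M was -0.46 for CTCF, -0.07 for RAD21 and 0.23 for SMC1, beside table medians of 0.26, 0.14 and 0.16. The sign of the RAD21 median depended on the scaling, with 0.15 when the lines were scaled by a constant. Within 1 Mb of the window the median CTCF M was 0.44, and relative to it 8 of the 10 CTCF regions of the gene lay below 0. Recentred on all CTCF regions, 1 region of the window was 2-fold higher in DKO and 5 were 2-fold lower. Regions of RAD21 or SMC1 away from CTCF were numerous and low. By region midpoint, the middle part of the gene body, chr7:787933-807567, held no CTCF region. It held 3 RAD21 regions with M between 0.04 and 0.55, and 4 SMC1 regions with M between -0.62 and 0.57. The CTCF region of the 41.2 kb site had its summit at 807525, inside these bounds, but its midpoint placed it in the next part.

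Polymerase along the body of HEATR2 was mostly higher in DKO, by an amount that depended on the scaling. Of 38 TotalRNAPol2 regions over the gene 36 had an M above 0, and the interval lay wholly above 0 for 33 and below 0 for 1. Over all TotalRNAPol2 regions the median M was 0.27, and recentred on it 35 of the 38 lay above 0. In the middle part all 10 were above 0, with M between 0.48 and 1.27 and a median of 0.98, which was 0.66 when the lines were scaled by a constant. The densest was chr7:803141-803891, with 123 reads in DKO and 61 reads in HCT116 (M 0.63, 0.19 to 1.11). In the 5′ part the densest were chr7:779636-779972 and chr7:780245-780934, each with 141 reads in DKO and 54 reads in HCT116 (M 0.99, 0.55 to 1.49). These 2 regions have the same counts and lie closer together than the 2 kb counting window, so they share reads. In the window 14 of 48 TotalRNAPol2 regions were 2-fold or more higher in DKO, with M between 1.01 and 2.41, against 20.7% of the table, and under constant scaling 1 was. The single region at least 2-fold lower, chr7:774535-774748, had 29 reads in DKO and 66 reads in HCT116 (M -1.22, -1.93 to -0.60), against 10.2% of the table.

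Serine 2 polymerase over the gene had mostly positive M values, most of them within counting error. Of 45 Pol2Ser2 regions over the gene 39 had an M above 0, with 27 above 0 relative to the median within 1 Mb of the window, and the interval lay wholly above 0 for 16 and wholly below 0 for none. Over all Pol2Ser2 regions the median M was 0.17, and recentred on it 30 of the 45 lay above 0. The median M was 0.56 in the 5′ part of the body, 0.60 in the middle part and 0.33 in the 3′ part, and under constant scaling 0.20, 0.40 and 0.35, so the order of the parts depended on the scaling. The densest region of the 5′ part, chr7:786035-786363, had 54 reads in DKO and 46 reads in HCT116 (M 0.63, 0.04 to 1.23). Downstream of the 48.0 kb site the Pol2Ser2 regions at chr7:815902-816774, chr7:816868-817159 and chr7:818129-818932 had M values of -0.03, -0.16 and 0.00. Further on, chr7:819095-819264 and chr7:819633-819915 had 0.32 and 0.35 with intervals that held 0, chr7:822521-822795 had 0.76 (0.10 to 1.45) and chr7:822895-824259 had 0.62 (0.10 to 1.15). The last 4 of the part, from chr7:824550-825082 on, lay between -0.08 and 0.24. At the end of the gene chr7:827384-828194 had 46 reads in DKO and 56 reads in HCT116, with an M of 0.12 (-0.49 to 0.70), and the next, chr7:829682-829918, 7 reads in DKO and 25 reads in HCT116 (M -0.69, -2.28 to 0.42).

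In the window 10 of 67 Pol2Ser2 regions were 2-fold or more higher in DKO, against 18.6% of the table, and none was 2-fold lower, against 10.9%. Under constant scaling these counts were 4 and 2. Apart from the 3 at the 41.2 kb site they were spread out: chr7:752543-752725 (M 1.08), chr7:753616-754200 (1.13) and chr7:756252-756449 (1.18) upstream, chr7:786775-787055 (1.88), chr7:793647-793959 (1.04) and chr7:803534-804320 (1.02) in the body, and chr7:848156-848357 (1.05) downstream. The region of M 1.88 had 43 reads in DKO and 18 reads in HCT116 (1.10 to 2.81).

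Serine 5 polymerase was sparse between the promoter and the 41.2 kb site. By midpoint the middle part of the body held 3 Pol2Ser5 regions, with M between -0.69 (chr7:800445-800724, the densest) and -0.27. They had at most 35 reads in a library, and none of these intervals excluded 0. In the window 3 of 21 Pol2Ser5 regions were 2-fold or more higher in DKO, against 14.9% of the table, and none was 2-fold lower, against 21.0%. Of these 3, 2 lay at the 41.2 kb site and 1 in the 5′ part of the body. No Pol2Ser5 region lay at the 3′ end, where TotalRNAPol2 had M values of 1.17 (0.58 to 1.85) at chr7:827205-827414 and 0.91 (0.34 to 1.55) at chr7:827496-827957. These 2 regions lie closer together than the 2 kb counting window, so they share reads. Under constant scaling their M values were 0.69 and 0.46. No TotalRNAPol2 region lay in the downstream flank.

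**Figure D4:**
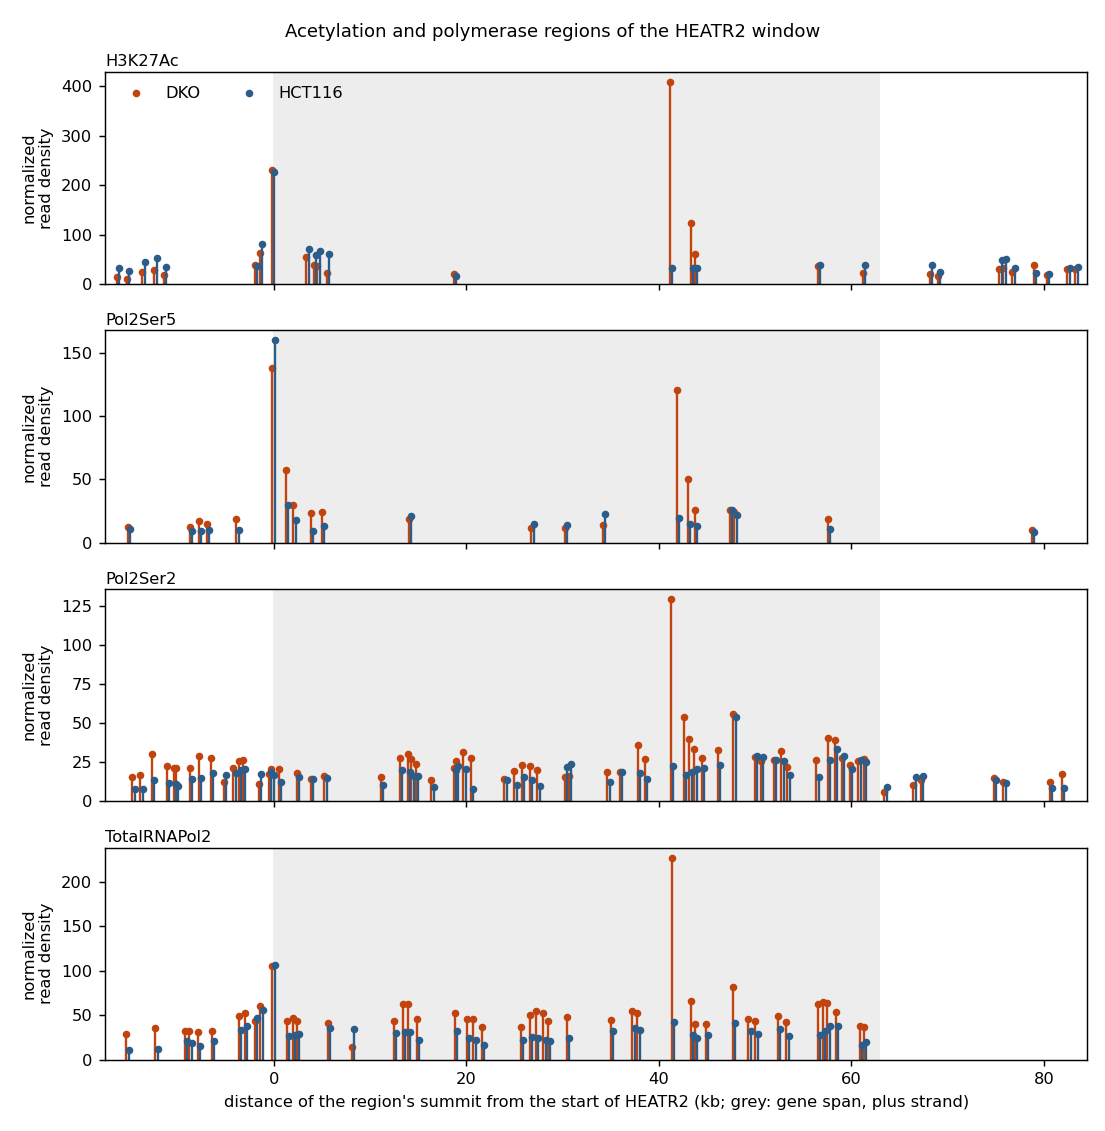
Normalized read density (y axis, linear, deposited units, normalized separately for each target) of each H3K27Ac, Pol2Ser5, Pol2Ser2 and TotalRNAPol2 region, drawn at the distance of its summit from the start of HEATR2 in kb, with DKO in orange left of HCT116 in blue and the gene span in grey. The lines are level at the promoter for H3K27Ac (M 0.03) and TotalRNAPol2 (M -0.02), and DKO stands above HCT116 for all 4 at 41.2 kb.

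Acetylation outside the promoter and the 41.2 kb site was less dense than in the main promoter region and mostly lower in DKO. Near the promoter it was not low in HCT116: chr7:769720-770039 had 153 reads, beside a median of 94 over all H3K27Ac regions. The upstream flank held 5 H3K27Ac regions with M between -1.31 and -0.84, of which chr7:749882-750270 and chr7:751088-751428 were at least 2-fold lower in DKO, with 24 and 18 reads in DKO and 69 and 58 reads in HCT116. With the 5′ CTCF site this made 3 of 27 regions at least 2-fold lower, against 10.4% of the table. The downstream flank held 9 H3K27Ac regions, 8 of them below 0, with a median M of -0.41. At the 3′ end H3K27Ac at chr7:827089-827905 had 38 reads in DKO and 83 reads in HCT116, with an M of -0.83 (-1.45 to -0.28). By region midpoint the middle part of the body held no H3K27Ac region, although the one at the 41.2 kb site started inside its bounds.

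For polymerase the upstream flank had a higher median M than the promoter, with ranges that overlapped. All 8 TotalRNAPol2 and all 5 Pol2Ser5 regions of the flank had an M above 0, with medians of 0.72 and 0.59. The same held for 12 of 13 Pol2Ser2 regions, with a median of 0.94. Under constant scaling the flank medians were 0.30 for TotalRNAPol2, 0.50 for Pol2Ser5 and 0.53 for Pol2Ser2. At the promoter the medians were 0.03 for TotalRNAPol2 over 4 regions, 0.38 for Pol2Ser5 over 2 and 0.13 for Pol2Ser2 over 4, the last of which was -0.07 under constant scaling. The 2 Pol2Ser5 regions of the promoter, with M of -0.21 and 0.96, spanned the flank's range of 0.15 to 0.96. Reads of HEATR2 and of PRKAR1B cannot be told apart where the annotated genes overlap.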

How the data were processed

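ChIP-seq libraries of DKO and HCT116 were aligned with BWA to hg19 and peaks called with MACS2, per the submitters' processing notes, which name MACS2 for all targets but TotalRNAPol2; versions are not stated in those notes. Each table holds regions called in DKO, HCT116 or both, per the file headers. The signal is a read density that the authors normalized; M and A are log2 values that the authors deposited, the ratio and the mean of the densities; the p-value of the authors' deposited table served only as an alternative filter. Tables were normalized separately, so levels were compared within a table. Input libraries were not used.

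Whole reads were recovered from M and A (100% whole within 0.05; the values show that 1 read was added to each count), and windows appeared centred on summits. Exact Clopper-Pearson 95% intervals of M cover counting error only, since each line has 1 library per target. They treat every read as independent, and PCR reads are not independent molecules, so they may be too narrow. A call was a 2-fold difference; with 1 library per line and target no test was made. Median reads per region over the tables were 24 to 78 in DKO and 23 to 94 in HCT116. Parts were the promoter and the 3′ end (within 2 kb), 3 equal parts of the body, and flanks, by region midpoint. The gene's bounds came from the definition of the locus; the RefSeq gene is 59777 bp long and the span used 62900 bp, so the 3′ end depends on the annotation. Named were all CTCF regions of the gene, the overlapping RAD21 and SMC1 regions, the densest region of the other targets in each part, every region past 2-fold (by range above 10), and the 5 CTCF regions elsewhere nearest in M, each region of another table being the densest that overlaps. Members and lists were chosen with earlier results of these data known. Recovery and intervals were tested on simulated data. Python 3.11.15, pandas 2.3.3, NumPy 2.4.6, SciPy 1.17.1 and matplotlib 3.10.9 were used. Alternatives changed scaling, filters and fold.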

Additional observations from a re-analysis of the deposited data

How the results depend on the processing

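No region at least 2-fold different as deposited changed the sign of its M under another scaling. At the 41.2 kb site all 7 M values stayed at 1.57 or more under every scaling. Removing the lines' level-dependent scaling (constant scaling) left 4 Pol2Ser2 regions 2-fold higher and 2 lower, and 1 TotalRNAPol2 region higher. Recentring on all regions gave 1 CTCF region higher and 5 lower, 4 Pol2Ser2 and 4 TotalRNAPol2 higher. Removing the chromosome 7 median gave 1 CTCF region lower and 6 Pol2Ser5 higher. Removing the median within 1 Mb gave 1 CTCF region higher and 5 lower, 3 Pol2Ser2 and 3 TotalRNAPol2 higher, and CTCF M of -1.65 at the 5′ site and -0.30 at the 3′ end. Constant scaling moved table medians by -0.31 for Pol2Ser2 and -0.40 for TotalRNAPol2, and by 0.13 for CTCF and 0.14 for RAD21, and it turned the RAD21 window median to 0.15, against -0.07 as deposited, with 12 RAD21 regions of the gene above 0 and 9 below, against 10 and 11.

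Regions called in both lines alone gave 0 higher for CTCF, RAD21, SMC1, H3K27Ac, Pol2Ser5, Pol2Ser2 and TotalRNAPol2, and 0 lower for H3K27Ac and TotalRNAPol2. Every region 2-fold higher was called in 1 line alone, as were the H3K27Ac and TotalRNAPol2 regions 2-fold lower. That line was not always the denser one: Pol2Ser2 at chr7:752543-752725 (M 1.08) was called in HCT116 only. Regions at or above the median density gave 1 RAD21 higher, 1 H3K27Ac lower and 0 TotalRNAPol2 lower. A deposited p under 1e-05 left 1 CTCF, 1 RAD21, 2 Pol2Ser2 and 1 TotalRNAPol2 higher, and 1 H3K27Ac and 0 TotalRNAPol2 lower. The medians over the fewer regions left were -1.11 for RAD21, 1.94 for H3K27Ac, 2.18 for Pol2Ser5, 2.11 for Pol2Ser2 and 2.41 for TotalRNAPol2. That p is small where M is large in size and reads are many, so these medians follow in part from the filter. Regions over the gene alone gave 1 RAD21 and 6 Pol2Ser2 higher and 1 H3K27Ac lower. At 1.5-fold, higher counts were 5 RAD21, 3 SMC1, 4 H3K27Ac, 11 Pol2Ser5, 28 Pol2Ser2 and 35 TotalRNAPol2, and lower counts 5 CTCF, 4 RAD21, 3 SMC1, 13 H3K27Ac, 1 Pol2Ser5 and 3 Pol2Ser2. At 4-fold, 1 region each of CTCF, H3K27Ac, Pol2Ser5, Pol2Ser2 and TotalRNAPol2 was higher and 0 of RAD21 and SMC1, and 0 regions of CTCF, RAD21, SMC1, H3K27Ac and TotalRNAPol2 were lower. No paired analysis was possible because each line has 1 library per target.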
